A study of Homo sapiens with 12 samples.

Results

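The BCL2 family apoptosis regulators described here are 10 genes: the BH3-only genes BBC3, PMAIP1, BCL2L11, BMF, BID, BAD and BIK, the pore-forming effector BAX, and the survival genes MCL1 and BCL2L1. They were taken by symbol from a table of 58735 genes, and every one of the 10 was found. RNA was sequenced from 12 samples labelled as the human liver tumour lines Huh7 and HepG2, each kept as an untreated control or treated for 48 h with geniposide, a plant iridoid glycoside from gardenia. There were 3 samples in each of the 4 groups, and neither the dose nor what the controls received in its place is given in the sources used here. Huh7 is an established line from a hepatocellular carcinoma and HepG2 an established line from a hepatoblastoma. By these labels the groups are cultured tumour cells and not liver tissue. The study's title concerns tumour growth and ferroptosis, an iron-dependent death by lipid peroxidation, whereas the genes below belong to apoptosis.

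The BCL2 family decides whether the outer membrane of the mitochondrion is opened, the step that releases cytochrome c and starts the caspases. BAX and BAK1 form the pore, the survival proteins MCL1, BCL2L1 (BCL-XL) and BCL2 hold them in check, and the BH3-only proteins free or activate the pore formers by binding the survival proteins or BAX and BAK1 directly. Several BH3-only genes are controlled at the level of transcription, by FOXO factors and by the stress factors ATF4, DDIT3 and JUN, which is why their transcripts are often followed as readouts of stress. Transcript levels do not report the protein, and MCL1 protein in particular turns over fast.

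Between 15056655 and 17211659 fragments fell in genes per library. Levels are in FPKM, which divides fragments by gene length and a library total, so that levels of different genes can be compared per length. The total implied by the deposited values lay above the fragments in genes in every Huh7 library and below them in every HepG2 library. For the first untreated libraries it was 1.73e+07 against 15841776 in Huh7 and 1.49e+07 against 16619767 in HepG2. For the first treated Huh7 library it was 1.87e+07 against 15946338. How this total was made is not known. Changes are differences in log2(FPKM + 1) from a limma fit over all 12 libraries, with the Benjamini-Hochberg adjusted p over 15518 genes and a threshold of 0.05. Nothing in the labels says that the 3 samples per group were separate cultures, so the p-values reflect sample-to-sample spread that could be technical. The third geniposide library of Huh7 stood apart: its counts differed from the other geniposide libraries of that line by a chi-square of 43.4 and 44.9 per degree of freedom, against 2.2 to 6.58 for any other pair within a group. Changes called in Huh7 are therefore given with and without it. The hepatocyte markers were close to absent, with 1 of 10 genes (APOE) at 1 FPKM or more in Huh7 and 0 of 10 in HepG2. Mean ALB was at 0 to 0.0212 FPKM in the 4 groups. These markers do not bear out the liver origin that the labels give. The names Huh7 and HepG2 are therefore used below as labels only, and the identity of the cells was not tested.

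In untreated Huh7 the most abundant members were MCL1 at 48.2 ± 0.39 FPKM and PMAIP1 at 47.3 ± 1.03 FPKM (SD, n = 3), whose ranges overlapped. BAX followed at 21.2 FPKM, then BAD at 8.58 and BID at 7.62, which overlapped each other, BCL2L11 at 5.98, BCL2L1 at 5.45, BBC3 at 4.33, and BIK at 2.09 and BMF at 1.90, which overlapped too. HepG2 gave a different order, with MCL1 at 81.4 ± 1.52 FPKM, BAX at 25.2, BAD at 14.4, BCL2L1 at 11.9, BID at 10.5, BIK at 7.97, PMAIP1 at 5.51, BBC3 at 3.95, BCL2L11 at 2.40 and BMF at 1.45 FPKM, and no neighbouring pair overlapped. The gene that moved furthest between the lines was thus PMAIP1, level with MCL1 in Huh7 and far below it in HepG2.

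Between the untreated lines, 6 members were higher in HepG2 (BIK, BCL2L1, MCL1, BAD, BID and BAX) and 3 were lower (PMAIP1, BCL2L11 and BMF). Across all genes tested, 36.1% were called higher in HepG2 and 35.8% lower. PMAIP1 was 8.57-fold lower in HepG2 by the ratio of means, a difference of -2.89 ± 0.28 (SE) in log2(FPKM + 1), with an adjusted p of 3.09e-06. BIK was 3.82-fold higher (1.55 ± 0.13, adjusted p = 6.93e-07), BCL2L1 2.18-fold higher (0.99 ± 0.12, 2.2e-05) and MCL1 1.69-fold higher (0.75 ± 0.08, 8.47e-06), while BCL2L11 was 2.50-fold lower (-1.04 ± 0.08, 5.76e-07). All 5 differences kept their call under every alternative run, but their sizes moved. They ran from 0.34 to 0.80 for MCL1, from 0.81 to 1.11 for BCL2L1 and from 1.41 to 1.90 for BIK. For BCL2L11 the range was -1.60 to -0.985 and for PMAIP1 -3.39 to -2.57. BBC3 did not pass, at -0.10 with a 95% interval of -0.44 to 0.25. The comparison between lines depends on scaling, because rescaling each library to a common FPKM sum (TPM) moved the median of all genes from -0.01 to -0.27, and modelling the fragments with voom moved it to -0.30. The difference for BAX, 0.24 as deposited (adjusted p = 0.00909), turned to -0.03 with TPM (0.742), to -0.05 with quantile normalization (0.476) and to -0.03 with voom (0.698), and that for BID, 0.42 (0.00071), was 0.18 with TPM (0.0713) and 0.17 with voom (0.091). BMF, at -0.24 (0.0185), lost its call with quantile normalization (-0.13, 0.132) and without either of the first or second untreated libraries of each line (adjusted p of 0.05 to 0.0744). With TPM the calls over all genes fell 36.6% on the higher side, against 50.2% as deposited.

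**Figure D1:**
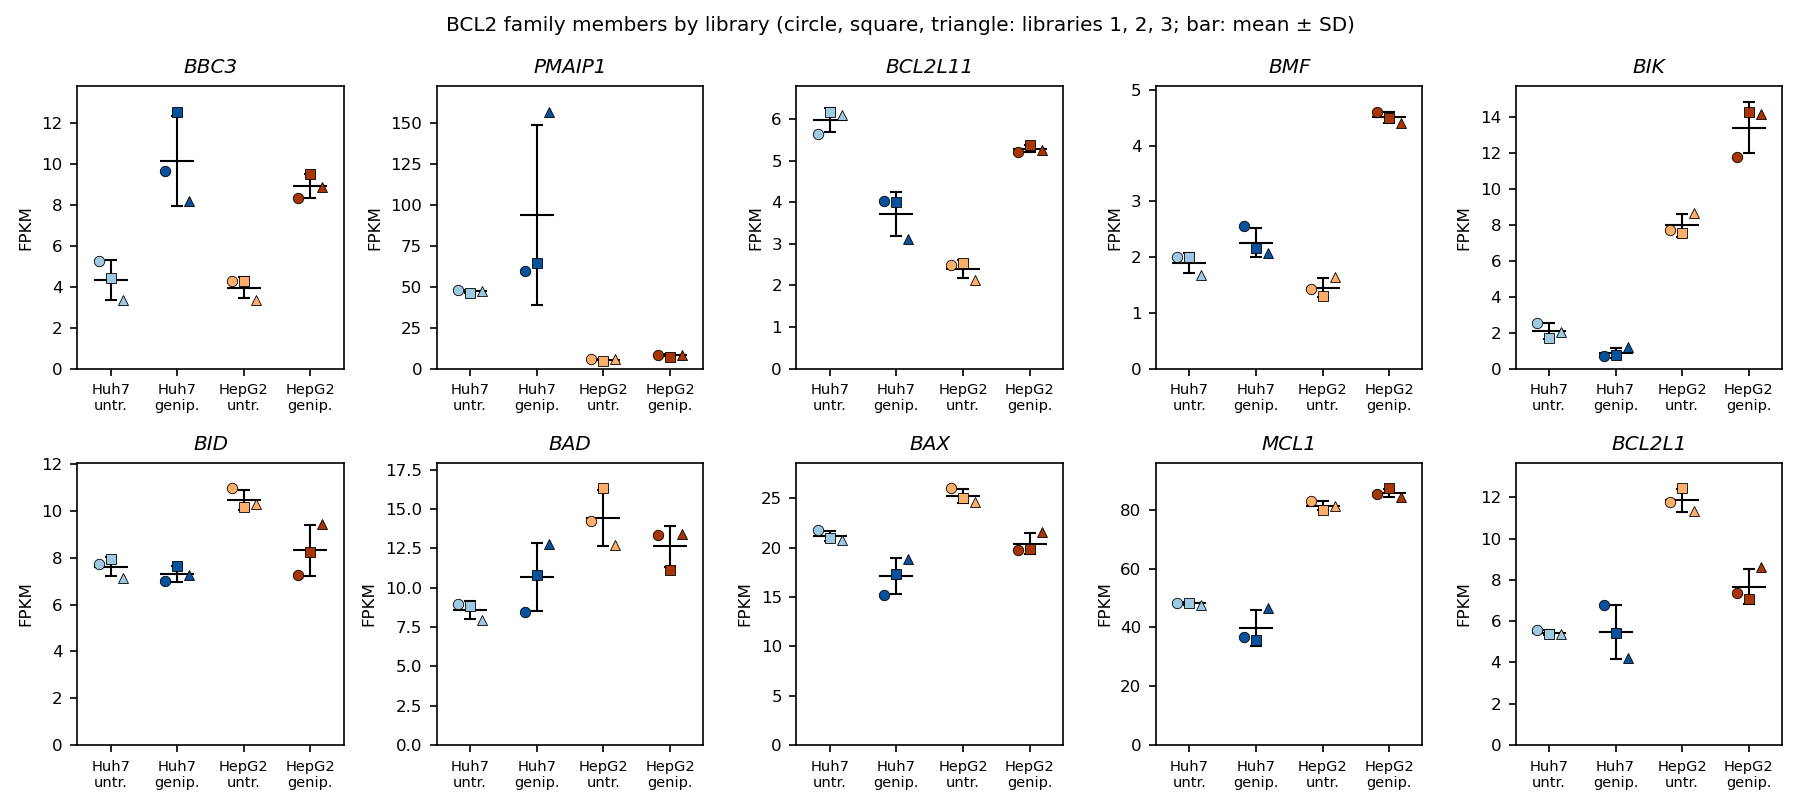
FPKM of each member in the 12 libraries, with 1 panel per gene, its own axis from 0, the 4 groups from left to right, circles, squares and triangles for libraries 1, 2 and 3, and bars for mean ± SD over n = 3. The third geniposide library of Huh7 stands at 157 FPKM of PMAIP1 above the other 2 at 59.4 and 64.8, and BCL2L11 and BIK run down in Huh7 and up in HepG2.

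The stretches before the start sites of 4 members that changed with geniposide in at least 1 line are shown because the other genes described below include factors with known binding motifs. RefSeq windows (GRCh38.p14) were matched for 8 of the 10 members, and MCL1 and BIK were not matched. Each stretch reads 5′ to 3′ on the gene's strand in lower case, and the capitals mark the motif named for it. BBC3 (chr19:47232767-47232917, minus strand) carries a match to the AP-1 motif TGANTCA, which JUN-containing dimers bind, 113 bases before the RefSeq start. PMAIP1 (chr18:59899746-59899947, plus strand) carries the core of the CRE and ATF motif, TGACGT, here on the opposite strand, 56 bases before the start. BCL2L11 (chr2:111120664-111120913, plus strand, inside an intron of a longer annotated transcript) carries the forkhead motif TGTTTAC that FOXO proteins bind, on the opposite strand, 223 bases before the start. BAX (chr19:48954625-48954814, plus strand) carries the E-box CACGTG, bound by MYC with MAX among others, at 138 and 93 bases before the start. The levels of MYC and ATF4 are not reported here. The BBC3, PMAIP1 and BAX stretches end 1 base before the gene begins in the table's annotation.
BBC3: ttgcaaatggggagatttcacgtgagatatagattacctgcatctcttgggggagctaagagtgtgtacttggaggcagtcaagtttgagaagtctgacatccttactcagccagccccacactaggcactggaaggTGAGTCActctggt
PMAIP1: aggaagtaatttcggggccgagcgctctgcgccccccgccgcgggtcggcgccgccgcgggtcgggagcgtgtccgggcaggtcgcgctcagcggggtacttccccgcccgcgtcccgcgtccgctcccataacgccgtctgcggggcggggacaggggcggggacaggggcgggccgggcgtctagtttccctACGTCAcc
BCL2L11: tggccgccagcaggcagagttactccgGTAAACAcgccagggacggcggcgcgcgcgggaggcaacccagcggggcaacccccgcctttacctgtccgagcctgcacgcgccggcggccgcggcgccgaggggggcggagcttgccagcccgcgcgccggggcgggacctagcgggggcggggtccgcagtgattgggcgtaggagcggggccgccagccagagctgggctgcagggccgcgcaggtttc
BAX: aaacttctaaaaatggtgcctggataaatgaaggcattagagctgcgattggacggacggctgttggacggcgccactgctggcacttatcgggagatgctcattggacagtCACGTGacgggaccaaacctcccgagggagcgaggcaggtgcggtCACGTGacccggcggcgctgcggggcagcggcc

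Motifs were searched on both strands in the 250 bases before the start of 35116 RefSeq windows. TGANTCA was found in 6.57% of them and in BBC3 alone among the members, TGACGT in 7.1% and in PMAIP1 and BAD, and TGTTTAC in 2.98% and in BCL2L11. CACGTG was found in 6.34% and in BAX, with 4 matches, BBC3 and BID. TGATGNAA, the core of the site for ATF4 with a CEBP partner such as DDIT3, was in 3.14% and in no member's window. A CACGTG match can end in the letters TG that open a TGACGT match, and a match is a description of the sequence only.

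With geniposide, 6 of the 10 members passed the test in Huh7 and 7 in HepG2. In Huh7, BBC3 and PMAIP1 rose and BCL2L11, BIK, BAX and MCL1 fell, against 16.4% of all genes called higher and 18.1% lower. In HepG2, BMF, BBC3, BCL2L11 and BIK rose and BCL2L1, BID and BAX fell, against 21% higher and 21.5% lower. Only BBC3 and BAX were called in the same direction in both lines, BCL2L11 and BIK were called in opposite directions, and BAD in neither. The share of all genes called in both lines, in the same or in opposite directions, was not computed, so this split has nothing to be set beside. The median change of the 10 members was -0.03 in Huh7 and 0.27 in HepG2, where the median of all genes tested was 0.00 in each. The geniposide and untreated groups did not overlap for 7 members in Huh7 and for 9 in HepG2, against 43.9% and 58.9% of all genes tested. Without the third treated Huh7 library the same 6 members were called in Huh7 in the same directions (22.2% of all genes higher and 23.8% lower), and PMAIP1 and MCL1 joined the 7 in HepG2 as higher (26.7% higher and 27.7% lower). With TPM scaling the split of all calls in Huh7 moved from 47.5% higher to 61.6%, and 5 members passed there. The lines have separate control libraries. In bulk RNA, fewer cells with a transcript and less transcript per cell cannot be told apart. Keratin 7 (KRT7), a bile duct marker, went from a mean of 279 to 72.9 FPKM with geniposide in HepG2, where the summed cholangiocyte list (2 of 5 genes at 1 FPKM or more untreated, EPCAM at 0.046 FPKM) ran at 275 to 288 untreated and 72.4 to 75.9 treated, and the fibroblast list (4 of 5 genes, COL1A2 at 0) at 36.5 to 38.1 and 44.5 to 46.6. Their part in the HepG2 results was not tested. Summed leukocyte and endothelial markers were at 1.8 FPKM or less in every library.

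**Figure D2:**
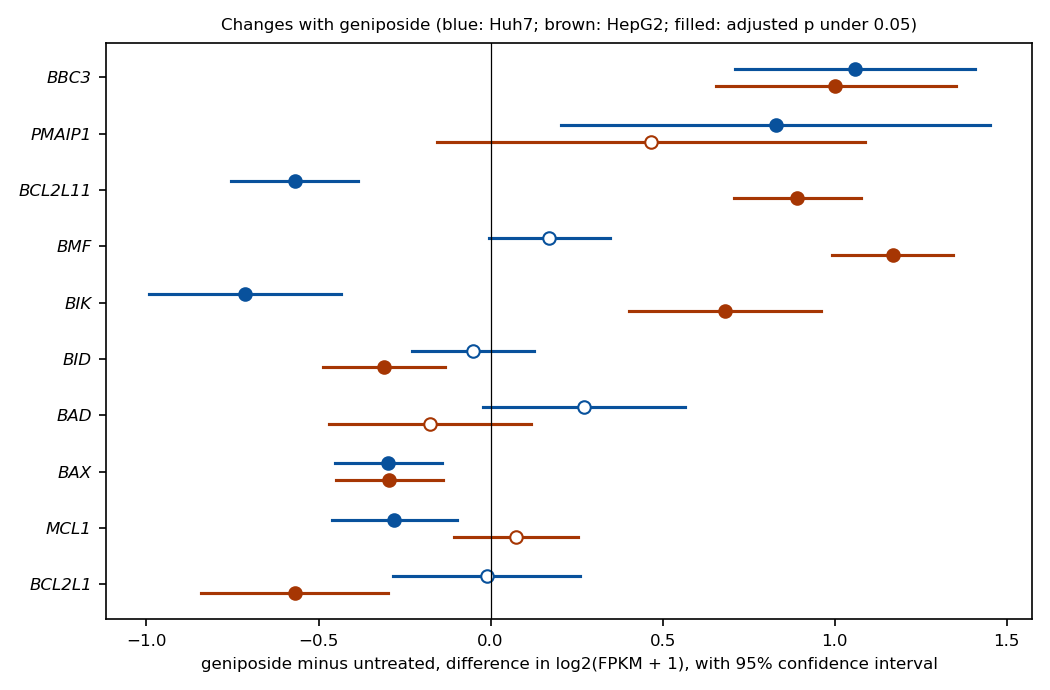
Change of each member with geniposide as the difference in log2(FPKM + 1), with its 95% confidence interval, in Huh7 (blue) and HepG2 (brown); filled points have a limma adjusted p under 0.05. BBC3 and BAX lie on the same side in both lines, and the intervals of BCL2L11 and of BIK lie on opposite sides of 0.

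BBC3 (ENSG00000105327, chr19:47220822-47232766 in hg38, minus strand) encodes PUMA, a BH3-only protein that binds all the survival proteins and is induced by cell stress. The 3 untreated Huh7 libraries held 5.25, 4.43 and 3.32 FPKM of BBC3 and the 3 treated ones 9.66, 12.5 and 8.19. HepG2 held 4.25, 4.27 and 3.34 FPKM untreated and 8.32, 9.50 and 8.86 treated. Every treated library lay above every untreated library of its line. The rise was 2.34-fold by the ratio of means in Huh7 (1.06 ± 0.16 SE in log2(FPKM + 1), limma adjusted p = 0.000561, and 1.19, 0.00023 without the third treated library) and 2.25-fold in HepG2 (1.002 ± 0.16, adjusted p = 0.000475). The difference between the lines was -0.06, with a 95% interval of -0.55 to 0.44. Both calls held under every alternative run, with adjusted p up to 0.0211 in Huh7 and 0.00485 in HepG2.

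PMAIP1 (ENSG00000141682, chr18:59899948-59904306 in hg38, plus strand) encodes NOXA, a BH3-only protein that binds chiefly MCL1 and promotes its breakdown. Huh7 libraries held 48.0, 46.1 and 47.7 FPKM untreated and 59.4, 64.8 and 157 treated. HepG2 libraries held 5.89, 4.89 and 5.75 FPKM untreated and 8.54, 7.30 and 8.15 treated. In both lines all 3 treated values were above all 3 untreated ones, and the third treated Huh7 library was far above its group. PMAIP1 rose in Huh7 by 0.83 ± 0.28 (adjusted p = 0.0423), a 1.98-fold ratio of means, and without the third treated library by 0.39 ± 0.08 (adjusted p = 0.00272). The call in Huh7 was lost without the filter on low values (adjusted p = 0.199), with each line fitted alone (0.186), without any 1 untreated Huh7 library (0.0897 to 0.1) and without any 1 HepG2 library (0.0555 to 0.0577). HepG2 showed a ratio of 1.45 and a difference of 0.47 ± 0.28 that did not pass (adjusted p = 0.216). It did pass in HepG2 fitted alone (0.00798) and without the third treated Huh7 library (0.000284), which enters the shared estimate of the spread. The change did not differ detectably between the lines (-0.36, 95% interval -1.24 to 0.52, and 0.08 without that library, adjusted p = 0.577).

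BCL2L11 (ENSG00000153094, chr2:111119378-111168447 in hg38, plus strand) encodes BIM, which binds all the survival proteins and can activate BAX and BAK1 directly, and whose gene is a FOXO target. Untreated Huh7 libraries held 5.64, 6.18 and 6.11 FPKM and treated ones 4.03, 4.01 and 3.12. HepG2 ran the other way, with 2.50, 2.54 and 2.14 FPKM untreated and 5.22, 5.39 and 5.27 treated. The groups did not overlap in either line, and treated HepG2 stayed just below untreated Huh7. BCL2L11 fell in Huh7 to 0.622 of its untreated mean (-0.57 ± 0.08, adjusted p = 0.000498, and -0.47, 0.000195 without the third treated library) and rose 2.21-fold in HepG2 (0.89 ± 0.08, adjusted p = 1.44e-05). The difference between the changes was 1.46 ± 0.12 (adjusted p = 2.62e-05, and 1.37, 3.97e-06 without that library), and these 3 calls held under every alternative run. BCL2L11 shares 727 exon bases with the non-coding gene MIR4435-2HG on the opposite strand, at 0.65 to 1.26 FPKM, and the library protocol does not mark strand. Gene-level values also do not separate the splice forms of BCL2L11, which differ in potency.

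BMF (ENSG00000104081, chr15:40087890-40108892 in hg38, minus strand) encodes a BH3-only protein tethered to the actin motor complexes and linked to detachment from the matrix. Its libraries held 1.99, 2.01 and 1.68 FPKM in untreated Huh7, 2.55, 2.16 and 2.07 in treated Huh7, 1.42, 1.29 and 1.64 in untreated HepG2, and 4.61, 4.498 and 4.41 in treated HepG2. BMF rose 3.10-fold in HepG2 (1.17 ± 0.08, adjusted p = 1.86e-06), the largest change of any member in that line. Huh7 showed no overlap either, but the difference of 0.17 ± 0.08 did not pass (adjusted p = 0.124, and 0.21, 0.0595 without the third treated library). The change in HepG2 exceeded that in Huh7 by 0.998 ± 0.11 (adjusted p = 0.00018), and this held under every alternative that could be fitted. The antisense gene BMF-AS1 was listed at 0 in every library.

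BIK (ENSG00000100290, chr22:43110748-43129712 in hg38, plus strand) encodes a BH3-only protein of the endoplasmic reticulum membrane. Huh7 held 2.54, 1.68 and 2.03 FPKM untreated and 0.675, 0.778 and 1.19 treated, which rest on 12 to 42 fragments a library. HepG2 held 7.69, 7.54 and 8.67 FPKM untreated and 11.8, 14.3 and 14.1 treated, from 109 to 211 fragments. As for BCL2L11, treated libraries lay below all untreated ones in Huh7 and above all of them in HepG2. BIK fell to 0.422 of its untreated mean in Huh7 (-0.72 ± 0.13, adjusted p = 0.00153, and -0.83, 0.000383 without the third treated library) and rose 1.68-fold in HepG2 (0.68 ± 0.13, adjusted p = 0.00135). The changes differed by 1.40 ± 0.18 (adjusted p = 0.000383, and 1.51, 9.38e-05 without that library), and the 3 calls held under every alternative run. For a gene this low in Huh7, adding 1 before the log makes the fitted change smaller than the ratio.

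BID (ENSG00000015475, chr22:17734138-17774770 in hg38, minus strand) encodes the BH3-only protein that caspase-8 cleaves to pass the death receptor signal to the mitochondrion. Untreated HepG2 libraries held 11.0, 10.2 and 10.3 FPKM and treated ones 7.26, 8.24 and 9.44, with no overlap. BID fell there to 0.793 of its untreated mean (-0.31 ± 0.08, adjusted p = 0.00972). Huh7 ran at 7.74, 7.96 and 7.16 FPKM untreated and 7.004, 7.66 and 7.27 treated, which overlapped (-0.05 ± 0.08, adjusted p = 0.668). The difference between lines did not pass (-0.26, adjusted p = 0.118), but did without the third treated HepG2 library (-0.34, adjusted p = 0.0273).

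BAD (ENSG00000002330, chr11:64269830-64284704 in hg38, minus strand) encodes the BH3-only protein that growth factor signalling holds inactive by phosphorylation. Huh7 held 8.99, 8.83 and 7.92 FPKM untreated and 8.47, 10.8 and 12.8 treated, and HepG2 14.2, 16.3 and 12.7 untreated and 13.4, 11.1 and 13.4 treated. The groups overlapped in both lines, and neither 0.27 ± 0.13 in Huh7 (adjusted p = 0.143) nor -0.18 ± 0.13 in HepG2 (adjusted p = 0.329) passed. Without the first treated Huh7 library the Huh7 value was 0.41 (adjusted p = 0.0226) and the difference between lines -0.59 (adjusted p = 0.0206, against -0.45 and 0.102 with it). BAD shares 404 exon bases with GPR137, a gene on the opposite strand that ran at 8.69 to 13.1 FPKM, so the values of BAD are uncertain by what the unmarked strand could add.

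BAX (ENSG00000087088, chr19:48954815-48961798 in hg38, plus strand) forms the pore in the outer membrane. Huh7 held 21.8, 20.9 and 20.8 FPKM untreated and 15.1, 17.3 and 18.8 treated, and HepG2 26.0, 25.1 and 24.6 untreated and 19.7, 19.9 and 21.6 treated. No treated library reached an untreated one in either line. BAX fell to 0.807 of its untreated mean in Huh7 (-0.30 ± 0.07, adjusted p = 0.00785, and -0.37, 0.000693 without the third treated library) and to 0.809 in HepG2 (-0.29 ± 0.07, adjusted p = 0.00623). The difference between the lines was 0.00, with a 95% interval of -0.22 to 0.22. The Huh7 call was lost with that line fitted alone (adjusted p = 0.0571). BAX therefore moved against BBC3, the other member called the same way in both lines.

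MCL1 (ENSG00000143384, chr1:150574551-150579738 in hg38, minus strand) was the most abundant survival gene in every library. Huh7 held 48.3, 48.4 and 47.7 FPKM untreated and 36.7, 35.8 and 46.7 treated, and HepG2 83.0, 80.0 and 81.3 untreated and 85.4, 87.4 and 84.5 treated. The first and second treated Huh7 libraries were well below the controls, while the third lay just under them. MCL1 fell in Huh7 by 0.28 on the log2 scale, SE 0.08, to 0.826 of its untreated mean (adjusted p = 0.0223), and without the third treated library by 0.40, SE 0.03 (adjusted p = 4.7e-06). The call was lost without the filter (adjusted p = 0.0911), with TPM (0.0909), quantile normalization (0.0789), voom (0.0676) or the line alone (0.124), without any 1 untreated Huh7 library (0.0547 to 0.0621) and without the first or the second treated one (0.0743 and 0.0771). In HepG2 the difference of 0.07 ± 0.08 did not pass (adjusted p = 0.526), although the groups did not overlap. It passed with quantile normalization (0.19, adjusted p = 0.0297), with HepG2 alone (0.0405) and without the third treated Huh7 library (0.0303).

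BCL2L1 (ENSG00000171552, chr20:31664452-31723989 in hg38, minus strand) encodes BCL-XL, and its transcript also yields a short splice form with the opposite action that gene-level values do not separate. Untreated HepG2 libraries held 11.8, 12.4 and 11.3 FPKM and treated ones 7.37, 7.05 and 8.62. BCL2L1 fell there to 0.648 of its untreated mean (-0.57 ± 0.12, adjusted p = 0.00339), with no overlap and under every alternative run. Huh7 held 5.57, 5.38 and 5.39 FPKM untreated and 6.81, 5.42 and 4.22 treated, a group that spread to either side of the controls. Its difference was -0.01 (95% interval -0.28 to 0.26), and 0.14 without the third treated library (adjusted p = 0.266). The antisense gene ABALON shares 1424 exon bases with BCL2L1 and ran at 0.111 to 0.843 FPKM.

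The change differed between the lines for 5 members, higher in HepG2 for BCL2L11, BMF, BIK and MCL1 and lower for BCL2L1, against 14.1% of all genes called higher and 13.7% lower. For BCL2L11, BMF and BIK this was described above and held under every alternative that could be fitted, which for BMF leaves out the filter at 5 FPKM. For MCL1 the difference was 0.35 ± 0.12 (adjusted p = 0.0434) and for BCL2L1 -0.56 ± 0.17 (adjusted p = 0.0355). Both were lost in most alternatives, MCL1 with adjusted p up to 0.165 and BCL2L1 up to 0.157, and both passed without the third treated Huh7 library (1.87e-05 and 0.00165). MCL1 thus fell in the line where BCL2L1 did not pass, and BCL2L1 fell in the line where MCL1 did not fall.

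Summed over roles, the 7 BH3-only members came to 80.2, 77.2 and 75.9 FPKM in untreated Huh7 and to 91.8, 103 and 192 in treated Huh7. In HepG2 the sums were 46.9, 47.0 and 44.6 untreated and 59.1, 60.3 and 63.7 treated. PMAIP1 made up most of the Huh7 sums, and without it they were 30.5 ± 2.03 and 35.0 ± 2.81 FPKM in untreated and treated Huh7, and 40.7 ± 1.68 and 53.03 ± 2.49 in HepG2 (SD, n = 3). The treated sums lay above all untreated ones in both lines, with PMAIP1 and without it. Without it the Huh7 groups barely parted, with the lowest treated sum at 32.39 FPKM and the highest untreated one at 32.15. Of all single genes tested, 43.9% in Huh7 and 58.9% in HepG2 did not overlap either. MCL1 and BCL2L1 together came to 53.6 ± 0.44 and 45.3 ± 5.04 FPKM in untreated and treated Huh7 and to 93.3 ± 1.32 and 93.4 ± 0.89 in HepG2. The sum over all survival genes of the family went from 59.8 ± 0.42 to 52.3 ± 5.12 FPKM in Huh7. In HepG2 that sum went from 105.5 ± 0.81 to 109.5 ± 1.05 FPKM, and neither line overlapped. The effectors BAX, BAK1 and BOK went from 44.8 ± 1.91 to 41.2 ± 1.99 FPKM in Huh7, with overlap. In HepG2 the effector sum went from 69.4 ± 1.38 to 63.1 ± 2.87 FPKM, without overlap. No test was made on these sums, because the members were chosen with earlier results known.

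PMAIP1 and MCL1 are a matched pair of inhibitor and target. Their transcript ratio restates the levels given above and is a description only. The ratio of PMAIP1 to MCL1 FPKM was 0.993, 0.952 and 0.999 in untreated Huh7 and 1.62, 1.81 and 3.37 in treated Huh7. In HepG2 it was 0.0710, 0.0612 and 0.0707 untreated and 0.1, 0.0835 and 0.0964 treated. All treated ratios lay above the untreated ones of their line, and every HepG2 ratio lay below every Huh7 ratio. Of all single genes tested, 43.9% in Huh7 and 58.9% in HepG2 did not overlap with treatment, and 80.2% did not overlap between the untreated lines.

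**Figure D3:**
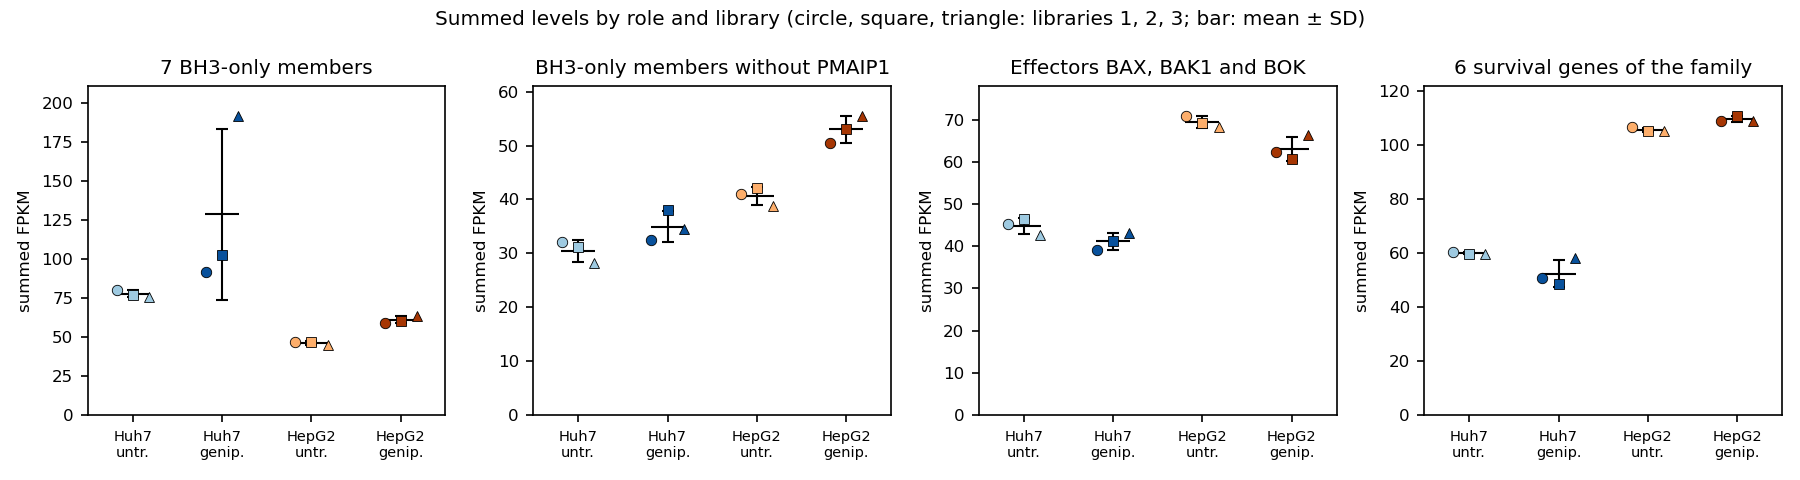
FPKM summed over the genes of each role in the 12 libraries, with axes from 0, circles, squares and triangles for libraries 1, 2 and 3, and bars for mean ± SD over n = 3; the 6 survival genes are MCL1, BCL2L1, BCL2, BCL2L2, BCL2A1 and BCL2L10. The BH3-only sum of treated Huh7 runs from 91.8 to 192 FPKM, and without PMAIP1 from 32.4 to 38.0.

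Among 13 other genes of the family, 9 passed the filter on low values. In Huh7, 3 of them rose (BNIP3L, BCL2L13 and HRK) and 1 fell (BCL2L12), and in HepG2 4 rose (BNIP3, BNIP3L, BCL2L2 and BCL2L13) and 1 fell (HRK), beside 16.4% of all genes higher and 18.1% lower in Huh7 and 21% and 21.5% in HepG2. BNIP3 and BNIP3L encode mitochondrial proteins best known for mitophagy in hypoxia. BNIP3 went from 48.5 to 50.8 FPKM in untreated HepG2 to 133 to 140 FPKM in treated HepG2, a rise of 1.44 ± 0.38 (adjusted p = 0.011, and 0.0754 without the filter), while treated Huh7 libraries held 25.0, 27.8 and 6.57 FPKM against 13.3 to 13.8 in the controls. BNIP3L rose 1.82-fold in Huh7 (0.73, adjusted p = 0.0168, and 1.04, 1.71e-06 without the third treated library) and 1.85-fold in HepG2 (adjusted p = 0.00477), again with the third treated Huh7 library lowest, at 8.40 FPKM. The Huh7 call of BNIP3L was lost without the filter (0.0947), with the line alone (0.122), without the third untreated library (0.0527) and without the first or second treated one (0.0575 and 0.0552).

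BCL2L13, another mitophagy receptor, rose in both lines (0.46 ± 0.06 and 0.30 ± 0.06, adjusted p of 0.000203 and 0.00186), and by 0.41 in Huh7 without the third treated library (8.6e-05). BCL2L2, the survival gene for BCL-W, rose in HepG2 from 10.9 ± 0.53 to 14.9 ± 0.38 FPKM (0.42 ± 0.06, adjusted p = 0.000238) and stood at 5.57 and 6.17 in Huh7 (0.13, adjusted p = 0.125). It shares exon bases with PPP1R3E on the opposite strand, which ran at 2.07 to 22.3 FPKM. BCL2L12 fell in Huh7 from 28.3 ± 1.92 to 16.2 ± 4.22 FPKM (-0.80 ± 0.15, adjusted p = 0.00234, or -0.58, 0.000123 with the third treated library left out) and overlaps IRF3, at 12.3 to 21.6 FPKM. HRK, a BH3-only gene, went from 2.33 to 3.30 FPKM in Huh7 (0.35, adjusted p = 0.0387) and from 0.845 to 0.474 in HepG2 (0.0462), and both calls were lost in most alternatives, in Huh7 also without the third treated library (0.20, 0.0564).

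BAK1, the other main pore former, did not pass in either line, at 22.6 and 23.2 FPKM in Huh7 and 23.1 and 21.4 in HepG2 (0.04, 95% interval -0.08 to 0.17, and -0.11, -0.23 to 0.02). BOK, a pore-forming relative, stood at 1.05 ± 0.18 FPKM in untreated Huh7 and 21.1 ± 0.59 in untreated HepG2, 20.1-fold apart (adjusted p = 1.52e-09), with no change passing in either line. BCL2, the founding survival gene, was low at 0.637 FPKM in untreated Huh7 and 1.27 in untreated HepG2, and did not pass with geniposide. BCL2A1, BCL2L10, BCL2L14 and BCL2L15 were below the filter, at a mean of 0.143 FPKM or less in every group.

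Downstream of the mitochondrion, 14 of 15 listed genes for caspases and released factors could be tested, and DIABLO was left out because its symbol names 2 rows. In Huh7 0 rose and 6 fell, and in HepG2 0 rose and 6 fell, beside 16.4% of all genes called higher and 18.1% lower in Huh7 and 21% and 21.5% in HepG2, which are the shares to set beside the lists that follow too. Without the third treated Huh7 library, 1 rose and 7 fell in Huh7 and 3 rose and 7 fell in HepG2. The median change was -0.16 in Huh7 and -0.22 in HepG2. AIFM1, a mitochondrial flavoprotein that also serves respiratory chain assembly, fell from 45.5 to 29.7 FPKM in Huh7 (adjusted p = 1.62e-05, and 1.04e-06 without the third treated library) and from 28.3 to 15.7 in HepG2 (1.01e-06). VDAC3, a channel of the outer membrane, fell from 39.6 to 30.3 FPKM in Huh7 (0.000296, and 0.00023 without that library) and from 45.6 to 33.8 in HepG2 (7.75e-05). VDAC1 fell in Huh7 (-0.78, 0.00116, and -0.58, 1.28e-05 without that library), and APAF1, the apoptosome scaffold, fell in HepG2 (-0.21, 0.00368). The executioner caspase gene CASP6 fell in Huh7 (-0.54, 0.00212, and -0.43, 0.00185 without that library) and in HepG2 (-0.28, 0.0447), where the call was lost without the filter (0.175), with TPM (0.111) or voom (0.107) and without any 1 of 8 of the libraries (0.0509 to 0.132). CYCS, encoding cytochrome c, fell in HepG2 from 30.1 to 19.1 FPKM (-0.63, 0.0209), a call lost without the filter (0.121) and without the first or the last untreated, or the second or the last treated, library (0.0504 to 0.061). AIFM1 and the VDAC genes also act in respiration and metabolite exchange.

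Of the inhibitors of apoptosis, 6 of 8 listed genes could be tested, with 1 up and 1 down in Huh7 and 2 up and 1 down in HepG2. BIRC5, encoding survivin, which also acts in mitosis, fell from 50.6 to 41.5 FPKM in Huh7 (-0.28 ± 0.05, adjusted p = 0.00106, and -0.31, 0.000117 without the third treated library) and from 40.3 to 31.5 in HepG2 (-0.35 ± 0.05, 0.000162). BIRC2 rose in both lines, by 0.19 in Huh7 (0.0176, and 0.21, 0.0115 without that library) and by 0.26 in HepG2 (0.00302), and lost its Huh7 call with the line alone (0.0889) and without the first untreated or second treated library (0.075 and 0.0609). BIRC3, an NF-kB target, rose in HepG2 from 14.1 to 26.6 FPKM (0.86 ± 0.08, 1.82e-05) and was at 0.0392 and 0.0637 FPKM in Huh7.

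Of the death receptor genes, 10 of 12 could be tested, with 1 up and 1 down in Huh7 and 3 up and 1 down in HepG2. TNFRSF10B, the TRAIL receptor DR5 and a DDIT3 target, rose in Huh7 from 13.5 to 18.4 FPKM (0.39 ± 0.13, adjusted p = 0.0338) and by 0.20 without the third treated library (0.00409), but the call was lost without the filter (0.151), with the line alone (0.167) and without any 1 untreated Huh7 library (0.063 to 0.106). In HepG2 the decoy receptor gene TNFRSF10D rose from 6.89 to 14.3 FPKM (3.99e-06), its ligand gene TNFSF10 from 0.577 to 1.73 (2.43e-05) and CFLAR, which encodes the caspase-8 inhibitor cFLIP, from 1.12 to 1.80 (0.000587). TNFRSF10D and TNFSF10 were listed at 0 in every Huh7 library. TRADD, an adaptor of the TNF receptor, fell in Huh7 (-0.55, 0.019), by less without the third treated library (-0.33, 0.0108), and lost the call without the filter (0.0993), with the line alone (0.123) and without the third untreated library (0.0605). TNFRSF1A, that receptor's gene, fell in HepG2 (-0.19, 0.0294), but not with TPM (0.161) or quantile normalization (0.241) or without the second or the third untreated or the first or second treated HepG2 library (0.0801 to 0.093).

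The next list held 11 genes, namely transcription factors that act on member genes and TRIB3, which encodes a pseudokinase and not a transcription factor. Of these, 10 could be tested, with 6 up, TRIB3 among them, and 1 down in Huh7 and 4 up and 0 down in HepG2. ATF3 rose in Huh7 from 10.6 ± 1.03 to 121 ± 64.6 FPKM (3.28, adjusted p = 1.63e-05, or 2.87, 3.35e-07 with the third treated library left out), with that library at 195 and the others at 75.6 and 92.8, and stood at 3.64 and 4.02 FPKM in HepG2 (0.785). DDIT3, encoding CHOP, rose in Huh7 from 3.41 to 20.1 FPKM (1.02e-06, and 1.15e-06 without that library) and in HepG2 from 3.85 to 7.57 (0.000141). JUN rose in Huh7 from 113 to 450 FPKM (3.23e-05, and 2.41e-07 without that library) and TRIB3 from 9.06 to 34.2 (1.73, 0.000264, and 1.38, 4.33e-06 without it), and neither passed in HepG2. FOXO3 rose in HepG2 from 8.46 to 12.4 FPKM (0.000169) and in Huh7 from 16.2 to 19.2 (0.23, 0.0225, and 0.28, 0.006 without that library), a Huh7 call lost without the filter (0.071) and without any 1 of the other 5 Huh7 libraries (0.05 to 0.0734). FOXO1 rose in HepG2 from 2.69 to 3.89 FPKM (0.00185). E2F1 rose in Huh7 from 36.0 to 42.9 FPKM (0.25, 0.00965, and 0.25, 0.00915 without that library) and in HepG2 from 25.8 to 29.03 (0.16, 0.0486), a HepG2 call lost without the filter (0.136), with the line alone (0.076) and without any 1 of 8 of the libraries (0.0602 to 0.191).

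All 10 listed growth arrest and stress genes outside the family could be tested, with 3 up and 1 down in Huh7 and 1 up and 2 down in HepG2. GADD45A rose in Huh7 from 16.6 to 55.2 FPKM (adjusted p = 7.51e-06, or 8.41e-07 when the third treated library was left out) and CDKN1A, encoding the cell cycle inhibitor p21, from 15.9 to 26.8 (0.67, 0.0103, with 0.41 and 0.00025 without the third treated library, 0.0624 without the filter and 0.0966 with the line alone). ZMAT3 was called in opposite directions, from 2.19 to 1.80 FPKM in Huh7 (0.0213, and 0.00664 without the third treated library) and from 12.3 to 19.5 in HepG2 (1.01e-05), and its Huh7 call was lost with TPM (0.0572), voom (0.0931), the line alone (0.086) and without the first or the third untreated or the first or second treated library (0.0558 to 0.0763). AEN and FDXR fell in HepG2 (-0.52, 0.0182, and -0.69, 0.0187), both lost without the filter (0.102 and 0.11) or without the second untreated library (0.0574 and 0.0643), AEN also without the third treated library (0.066) and FDXR without the second (0.057). Of 8 listed genes for MCL1 protein turnover, 7 could be tested, with 0 up and 1 down in Huh7 and 0 up and 2 down in HepG2. USP13, which removes ubiquitin from MCL1, fell in HepG2 from 8.83 to 5.50 FPKM (-0.60, 1.12e-05) and in Huh7 from 5.84 to 5.06 (-0.18, 0.0272, and -0.15, 0.0353 without the third treated library), a Huh7 call lost with TPM (0.185), voom (0.167), the line alone (0.115) and without any 1 untreated or the second treated library (0.0566 to 0.0835). DESI1, which is on this list although its part in MCL1 turnover was not tested, fell in HepG2 (-0.57, 4.78e-05).

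**Figure D4:**
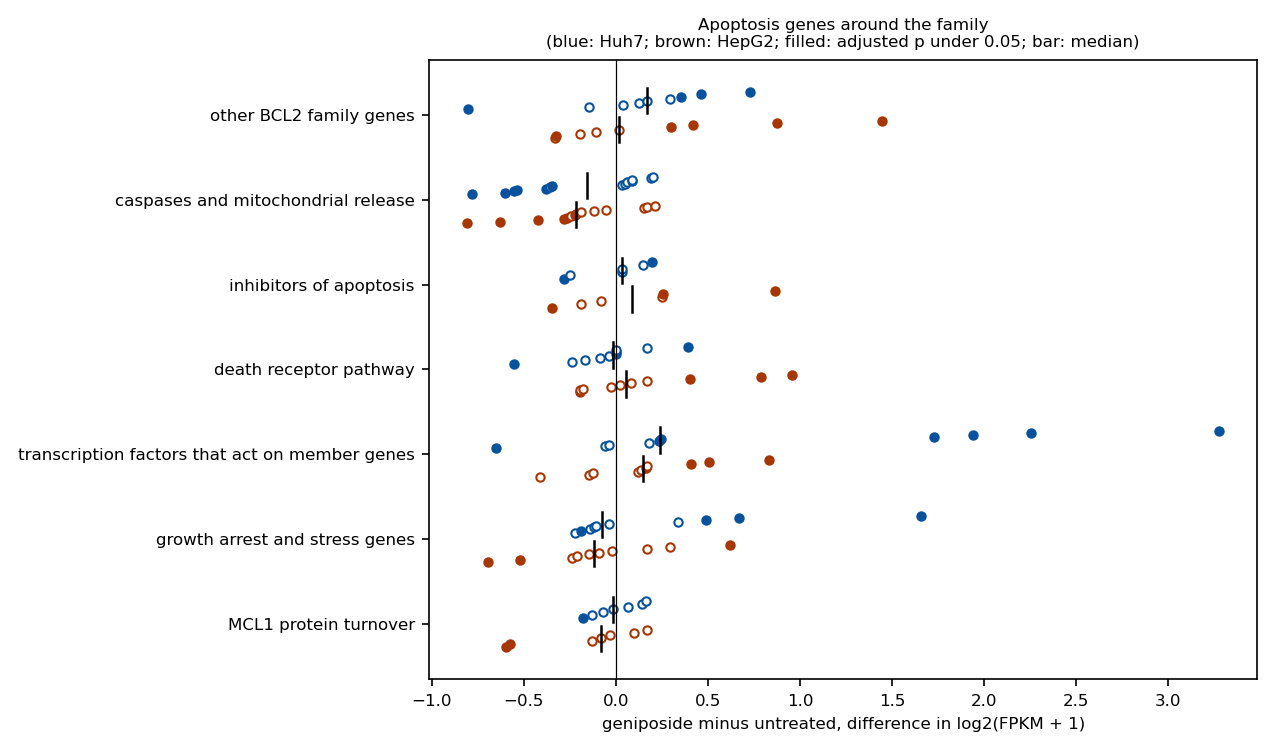
Change with geniposide, as the difference in log2(FPKM + 1), of each tested gene in 7 lists around the family, in Huh7 (blue) and HepG2 (brown); filled points have a limma adjusted p under 0.05 and the upright bar is the list's median. The largest changes are those of ATF3, DDIT3, JUN and TRIB3 in Huh7, and no caspase or release gene has a filled point to the right of 0. TRIB3 is drawn with the transcription factors but encodes a pseudokinase.

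The genes most like each member were sought by the root mean square difference in log2(FPKM + 1) over the 12 libraries after centring each gene on its own mean. This measure takes in the difference between lines as well as the response, and the libraries are shared, so it is a description only. BCL2L11 was nearest to DAPK1 (0.136), MARK4 (0.144) and DYRK2 (0.157), where its own root mean square deviation was 0.413. BMF was nearest to SYT7 (0.136) and BAX to SZRD1 (0.0495), against own deviations of 0.443 and 0.205. BBC3 was nearest to CYB5D2 (0.204), TSC22D3 (0.208) and MAST1 (0.22) against 0.548, and PMAIP1 was nearest to KIF1A (0.252 against 1.61), BIK to TOB1 (0.224 against 1.18), MCL1 to ST7 (0.0614 against 0.48), BCL2L1 to DKK3 (0.103 against 0.431) and BID to PDZD11 (0.0721 against 0.199).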

How the data were processed

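Poly(A) RNA of 12 samples was sequenced, 3 in each of 4 groups taken from the labels. The submitters' processing notes name CASAVA, fastp and build hg38. No version, aligner or counting program is given in the sources used here. The deposited values are FPKM made by the authors for 58735 genes, and 0 columns went unused. All identifiers matched GENCODE 29, whose strands and exons gave the overlaps. FPKM times gene length gave whole fragments within 0.05 for 100% of values, 15056655 to 17211659 per library, which sets the counting precision; depth limits low genes most, and intervals from counts cover counting error only. No libraries of a group agreed within sampling noise, which does not show that they were separate cultures. Each library was counted as a sample.

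limma 3.58.1 in R 4.3.3 was fitted to log2(FPKM + 1) with 4 group means, 8 residual degrees of freedom, trended moderated variances, two-sided tests and Benjamini-Hochberg adjustment per comparison at 0.05, over the 15518 genes with 1 FPKM or more in at least 3 libraries. Adding 1 understates the fold of low genes. Genes below the filter came from the fit without it. The fit was tested on simulated data. Intervals are 95%.

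Named genes are the members, the other family genes, and from each further list up to 4 called genes per treatment comparison by smallest p, with up to 3 most alike protein-coding genes per called member. The members and lists were chosen with earlier results of these data known. Some listed genes are not reported here. Alternatives were a pseudocount of 0.1, no filter or 5 FPKM, TPM or quantile scaling, each line alone, a replicate block, voom on recovered fragments, and each library left out.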

Additional observations from a re-analysis of the deposited data

Results flagged for a closer look

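For 7 genes of the family the test of the difference itself found that the change with geniposide differed between the lines. It is written here as the HepG2 change minus the Huh7 change in log2(FPKM + 1) from limma. For this difference, 14.1% of all genes tested were called higher and 13.7% lower. BCL2L11 (1.46) and BIK (1.40) were called in opposite directions in the 2 lines. BMF (0.998) rose in HepG2 and did not pass in Huh7. MCL1 (0.35) fell in Huh7 and did not pass in HepG2, and BCL2L1 (-0.56) fell in HepG2 and did not pass in Huh7. The differences for MCL1 and BCL2L1 were lost in most alternatives, with limma adjusted p up to 0.165 and 0.157. BCL2L2 (0.29, adjusted p = 0.0253) rose in HepG2 and did not pass in Huh7, and its difference was lost without the filter (0.058), with voom (0.13) and without the first or the third untreated Huh7 library, the first untreated HepG2 library or the first or second treated HepG2 library (0.0546 to 0.064). HRK (-0.68, adjusted p = 0.0127) was called higher in Huh7 and lower in HepG2, from levels under 1 FPKM in HepG2, and its difference was lost without the filter (0.0532). The 3 samples in each group are too few for an outlier test.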

How the results depend on the processing

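Of 776 values of members under an alternative, 690 kept their direction and their side of the threshold, 58 lost the call, 8 gained one and 20 changed sign. The number of members called in Huh7 (6) was 3 with each line alone and 4 to 6 without 1 library. The number whose change differed between the lines (5) was 3 without the filter and 3 to 5 without 1 library. The counts in HepG2 (7) and between the untreated lines (9) were 7 to 9 and 8 to 9 without 1 library. Between the untreated lines, 4 members were called higher and 3 lower with TPM and with voom, and 5 higher and 2 lower with quantile normalization. With the replicate block the counts were 6 in Huh7, 7 in HepG2, 3 for the difference and 8 between untreated lines. The shares of all genes called with that block were 29.13%, 38.36%, 20.36% and 59.55%, in the same order. The calls lost with the block among the values named were TNFRSF10B (0.0751) and USP13 (0.0809) in Huh7, E2F1 in HepG2 (0.0972), the difference for MCL1 (0.0818), BCL2L1 (0.058) and BCL2L2 (0.079), and BAX between untreated lines (0.0583). The deviations of same-numbered libraries from their group means had correlations of -0.0615 to 0.0201. With 3 libraries per group this cannot decide whether the numbers pair the samples, and the pairing is not known. Sign changes concerned BID in Huh7 (0.0188 with TPM, 0.0209 with voom), BCL2L1 in Huh7 (0.0592, 0.0621; -0.155 to 0.135 without 1 library), the difference between lines for BAX (-0.000332, -0.0573; -0.0753 to 0.0718), BBC3 (-0.186 to 0.0941) and PMAIP1 (-0.614 to 0.0804), and the untreated lines for BBC3 (-0.239 to 0.0264) and BAX (-0.0256 with TPM, -0.0489 with quantile normalization, -0.0332 with voom); the cause was not tested. Over all genes, calls in Huh7 numbered 5357, and 3266 with that line alone. The share of calls that were higher moved with voom from 47.5% to 60.9% in Huh7, from 50.8% to 40.1% for the difference and from 50.2% to 36.4% between untreated lines. A fit of each line alone gives no value for comparisons between lines, and the filter at 5 FPKM left out BMF.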
